A study of Homo sapiens with 36 samples.

Results

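The 9 genes described here are transcription factors that give peripheral and sensory neurons their identity: POU4F1, POU4F2, POU4F3, ISL1, ISL2, PHOX2A, TLX3, PRDM12 and RUNX1. They were chosen by name, and each was found on 1 row of the deposited count and TPM tables, so 9 of 62710 genes are described. The tables come from H9, an established human embryonic stem cell line, in which doxycycline drives NGN2 (the protein of NEUROG2), a proneural transcription factor that turns stem cells into neurons called iNeurons. Cells labelled WT, HET (RAI1+/-, a heterozygous mutant) and KO (RAI1-/-, a homozygous mutant) were sampled at days 0, 3 and 7 of induction, with 4 libraries in each of the 9 groups and 36 in all. Cells of all 3 genotypes were taken through the NGN2 induction, of which day 0 is the start, and induced cultures were kept in Neurobasal-A medium with B27, GDNF, NT3 and CultureOne. The labels do not say how many mutant clones stand behind HET and KO, which bases of RAI1 were changed, or whether the biological replicates were separate inductions, so p-values measure the spread between these libraries. RAI1 encodes a chromatin-associated regulator whose loss causes Smith-Magenis syndrome.

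In the body these factors work as a series of switches. Proneural proteins such as NEUROG1 and NEUROG2 start sensory neurogenesis in the neural crest and placodes by binding E-boxes, short DNA motifs read CANNTG. Newly born sensory neurons then switch on the POU-homeodomain factor POU4F1 (BRN3A) and the LIM-homeodomain factor ISL1, which together close the precursor programme and open that of sensory subtypes. PRDM12 and RUNX1 act in the lineage of pain-sensing neurons, TLX3 in excitatory relay and cranial sensory neurons, and PHOX2A in visceral and autonomic neurons. POU4F2 and POU4F3 are the relatives of POU4F1 that are best known from retinal ganglion cells and from hair cells of the inner ear.

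The sequences just before the start are shown for 4 members, those with the highest mean level over the 36 libraries. They come from RefSeq (GRCh38.p14), which held a promoter window for 9 of 9 members. Each is written 5' to 3' on the gene's own strand, with E-boxes in capitals, and without bases that GENCODE 29 puts inside the gene. The POU4F1 run is chr13:78603561-78603802 on the minus strand, the POU4F2 run chr4:146638643-146638892, the ISL1 run chr5:51383198-51383390 and the TLX3 run chr5:171308998-171309247, all 3 on the plus strand.
POU4F1: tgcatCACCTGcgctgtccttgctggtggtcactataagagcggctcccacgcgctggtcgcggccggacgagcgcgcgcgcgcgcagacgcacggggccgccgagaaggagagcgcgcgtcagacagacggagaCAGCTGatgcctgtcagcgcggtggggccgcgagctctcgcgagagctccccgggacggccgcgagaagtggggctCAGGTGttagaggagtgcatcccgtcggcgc
POU4F2: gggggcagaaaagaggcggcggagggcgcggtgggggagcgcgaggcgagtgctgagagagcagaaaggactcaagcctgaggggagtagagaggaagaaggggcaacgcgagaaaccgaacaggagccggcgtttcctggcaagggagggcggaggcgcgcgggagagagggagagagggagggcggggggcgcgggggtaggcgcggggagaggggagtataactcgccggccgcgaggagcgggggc
ISL1: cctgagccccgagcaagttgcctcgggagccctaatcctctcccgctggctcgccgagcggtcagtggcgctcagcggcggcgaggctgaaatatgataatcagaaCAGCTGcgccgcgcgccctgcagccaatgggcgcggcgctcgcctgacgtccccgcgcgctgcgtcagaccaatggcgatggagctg
TLX3: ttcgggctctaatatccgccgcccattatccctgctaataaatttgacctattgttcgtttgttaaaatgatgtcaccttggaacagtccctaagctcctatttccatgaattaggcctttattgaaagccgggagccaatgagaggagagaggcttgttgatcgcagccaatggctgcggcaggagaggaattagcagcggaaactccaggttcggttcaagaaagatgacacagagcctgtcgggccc
In the 250 bases before its RefSeq start POU4F1 held 3 E-boxes. CACCTG begins 245 bases before the start, a CAGCTG begins at 115 bases, and the nearest, CAGGTG, at 39 bases. ISL1 held 1, CAGCTG, at 144 bases. The other 7 members held none in this window, among them POU4F2 and TLX3. CANNTG reads the same on both strands, and 61.8% of 35116 RefSeq promoters of that length held at least 1. CAGATG, searched on both strands, stood in 12.2% of those promoters and in none of the members' windows. A match is a description of letters and not a binding site.

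By GENCODE 29 (GRCh38) the members are protein-coding genes on 7 chromosomes: POU4F1 at chr13:78598362-78603560, POU4F2 at chr4:146638893-146642474, POU4F3 at chr5:146338839-146341722, ISL1 at chr5:51383391-51394738, ISL2 at chr15:76336724-76342476, PHOX2A at chr11:72239077-72245664, TLX3 at chr5:171309284-171312134, PRDM12 at chr9:130664594-130682981 and RUNX1 at chr21:34787801-36004667. The use of strand in counting is not given in the sources used here, so reads of overlapping genes cannot be told apart, and 3 overlaps matter for levels. PHOX2A overlaps INPPL1 on the opposite strand, whose mean level was 20.5 to 174 CPM (counts per 1 M gene counts of the library), far above PHOX2A. POU4F3 overlaps AC091959.3 on its own strand, at 5.84 to 34.5 CPM. TLX3 overlaps the antisense RNA AC091980.2, at 10.7 CPM in WT, 9.86 in HET and 21.0 in KO at day 3. At day 7 AC091980.2 stood at 15.6, 8.75 and 10.8 CPM in WT, HET and KO, close to TLX3 itself in HET (11.2) and KO (12.3). These 3 members are therefore uncertain in level, and POU4F1 also overlaps antisense RNAs, of which AL445209.1 reached 8.26 CPM in KO at day 7.

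Library totals ran from 23.9 to 56.7 M gene counts (median 38.8). RAI1, the targeted gene, was counted at 23.9 to 43.1 CPM in WT, 29.6 to 51.4 in HET and 25.3 to 53.8 in KO libraries at day 0. At day 7 RAI1 stood at 34.5, 51.6, 40.7 and 66.7 CPM in WT, 59.8, 84.9, 88.1 and 48.8 in HET, and 80.8, 86.5, 85.3 and 61.0 in KO, and was higher in KO than in WT (log2 0.69, SE 0.22, edgeR adjusted p = 0.0296). Counts over the whole gene do not show whether an allele is disrupted, so genotypes are named by their labels throughout. Cells labelled iNeuron at day 0 carried the stem cell factor POU5F1 at means of 379, 358 and 420 CPM in WT, HET and KO, against 0.107, 0.132 and 0.0316 at day 7. The 5 pluripotency genes together summed to 46.3 to 62.4 CPM in WT, 57.0 to 150 in HET and 215 to 281 in KO libraries at day 7. In KO most of that sum was LIN28A, which was higher in KO than in WT (log2 3.38, mean 22 to 230 CPM). DPPA4, the larger part of the sum in WT, was lower in KO (log2 -2.29, mean 30.5 to 6.25 CPM). Mean correlation with the other 3 libraries of a group was lowest for HET day 7 replicate 1 (0.923), with a median over libraries of 0.980. WT day 7 replicate 1 had the highest summed level of 5 proliferation genes at that day (185 CPM, against 25.8 to 97.3 in the other WT libraries) and the lowest of 10 pan-neuronal genes (6304 CPM against 10692 to 12107).

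NEUROG2, the induced gene, was lower in KO than in WT at each day. At day 3 it stood at 19469 to 24748 CPM in WT, 14425 to 17470 in HET and 7505 to 9748 in KO, with no overlap between any 2 genotypes. KO was lower than WT by log2 -1.34 (SE 0.21, edgeR adjusted p = 0.000526), and HET by -0.46 (adjusted p = 0.325). At day 0 the WT, HET and KO means were 23.0, 8.55 and 2.02 CPM, and 58.9, 66.0 and 22.8 at day 7. The part of NEUROG2 level in the differences of the members was not tested. Counts do not tell the induced copy from the cell's own.

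**Figure D1:**
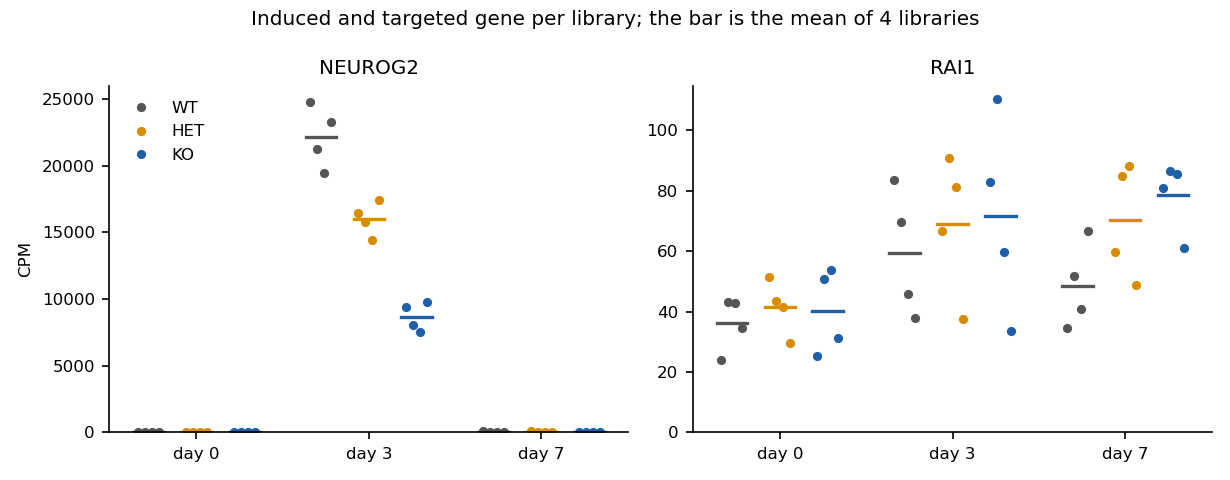
Level in CPM (y axis, from 0) of NEUROG2 and RAI1 in each of the 36 libraries, by day and genotype (x axis); points are libraries and bars are means of 4. At day 3 the KO libraries lie lowest for NEUROG2, at 7505 to 9748 CPM, while RAI1 overlaps between genotypes at each day.

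During induction of WT cells most members rose from near absence. Before induction, POU4F1 was at 0.119, 0.474, 0.206 and 0.483 CPM in the 4 WT libraries, and POU4F2, POU4F3, ISL1, ISL2 and PRDM12 at 0 to 0.225 CPM. Between days 0 and 3, 7 of 8 members tested passed in WT, against 60.0% of all genes, and 5 of the 7 rose. TLX3, a homeodomain factor that favours excitatory fates, rose most: it stood at 0.178, 0.274, 0.155 and 0.450 CPM at day 0 and at 40.1, 40.4, 36.3 and 21.4 at day 3 (log2 7.14, SE 0.40, edgeR adjusted p = 4.65e-09). POU4F1, ISL1, ISL2 and PRDM12 rose by log2 3.39, 3.97, 3.76 and 3.06. Without WT day 3 replicate 1, at 8.26 CPM against 0.884 to 1.92 in the others, the POU4F1 value was log2 2.36 (edgeR adjusted p = 0.000256). PHOX2A (log2 -2.50) and RUNX1 (-4.18) fell. Without WT day 0 replicate 2, at 10.6 CPM, the RUNX1 value was log2 -2.95 (edgeR adjusted p = 0.00251). POU4F2 was at 1 to 4 counts a library in WT at day 3.

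From day 3 to day 7 POU4F1, POU4F2 and ISL1 rose further in WT cells. There 4 of 8 members tested rose, against 46.2% of all genes that passed in either direction. POU4F1 went from 8.26, 1.92, 1.76 and 0.884 CPM to 22.2, 46.7, 25.1 and 39.0 (log2 3.5, SE 0.54, edgeR adjusted p = 0.000103), without overlap of the days. Without WT day 3 replicate 1 the POU4F1 value was log2 4.50 (edgeR adjusted p = 1.32e-06). POU4F2 went from 0.0779, 0.0234, 0.0234 and 0.0478 to 1.5, 8.78, 5.76 and 8.95 CPM (log2 7.15, SE 0.80). ISL1 rose by log2 2.96. RUNX1 rose by 2.38 (adjusted p = 0.0345), a call that was lost without WT day 7 replicate 1 (log2 1.28, adjusted p = 0.198) and without any 1 of the 4 WT day 3 libraries (adjusted p 0.0635 to 0.0806). TLX3 at day 7 stood at 21.9, 22.4, 24.3 and 47.8 CPM (log2 -0.11 against day 3, adjusted p = 0.782), so TLX3 came early and POU4F1, POU4F2 and ISL1 rose further after it.

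In the mutant cells, too, more members passed between days 0 and 3 than between days 3 and 7, and so did more of all genes. In HET, 7 of 8 members tested passed between days 0 and 3 (48.3% of all genes) and 4 of 8 between days 3 and 7 (41.2%). In KO, 8 of 8 passed between days 0 and 3 (59.3% of all genes) and 5 of 8 between days 3 and 7 (47.8%). PHOX2A fell in every genotype between days 0 and 3 (log2 -2.50 in WT, -3.41 in HET, -2.54 in KO), and so did RUNX1 (-4.18, -4.36 and -5.13). Without day 0 replicate 2 of the genotype, its highest RUNX1 library, the RUNX1 values were -2.95, -3.33 and -4.02. TLX3 rose by log2 7.14, 8.25 and 8.07 in WT, HET and KO. From day 3 to day 7 TLX3 then fell in HET by 1.52 (edgeR adjusted p = 0.00186) and in KO by 1.97 (adjusted p = 9.06e-05) on the log2 scale. ISL2, the close relative of ISL1, rose from day 3 to day 7 in KO (log2 3.38, adjusted p = 0.000186), while in WT the difference was 0.14 (adjusted p = 0.775). PRDM12 in HET did not pass between days 0 and 3 (log2 -0.01), and without HET day 0 replicate 1, at 1.87 CPM against 0.0418 to 0.149 in the other 3, the value was 2.28 (adjusted p = 0.00489).

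**Figure D2:**
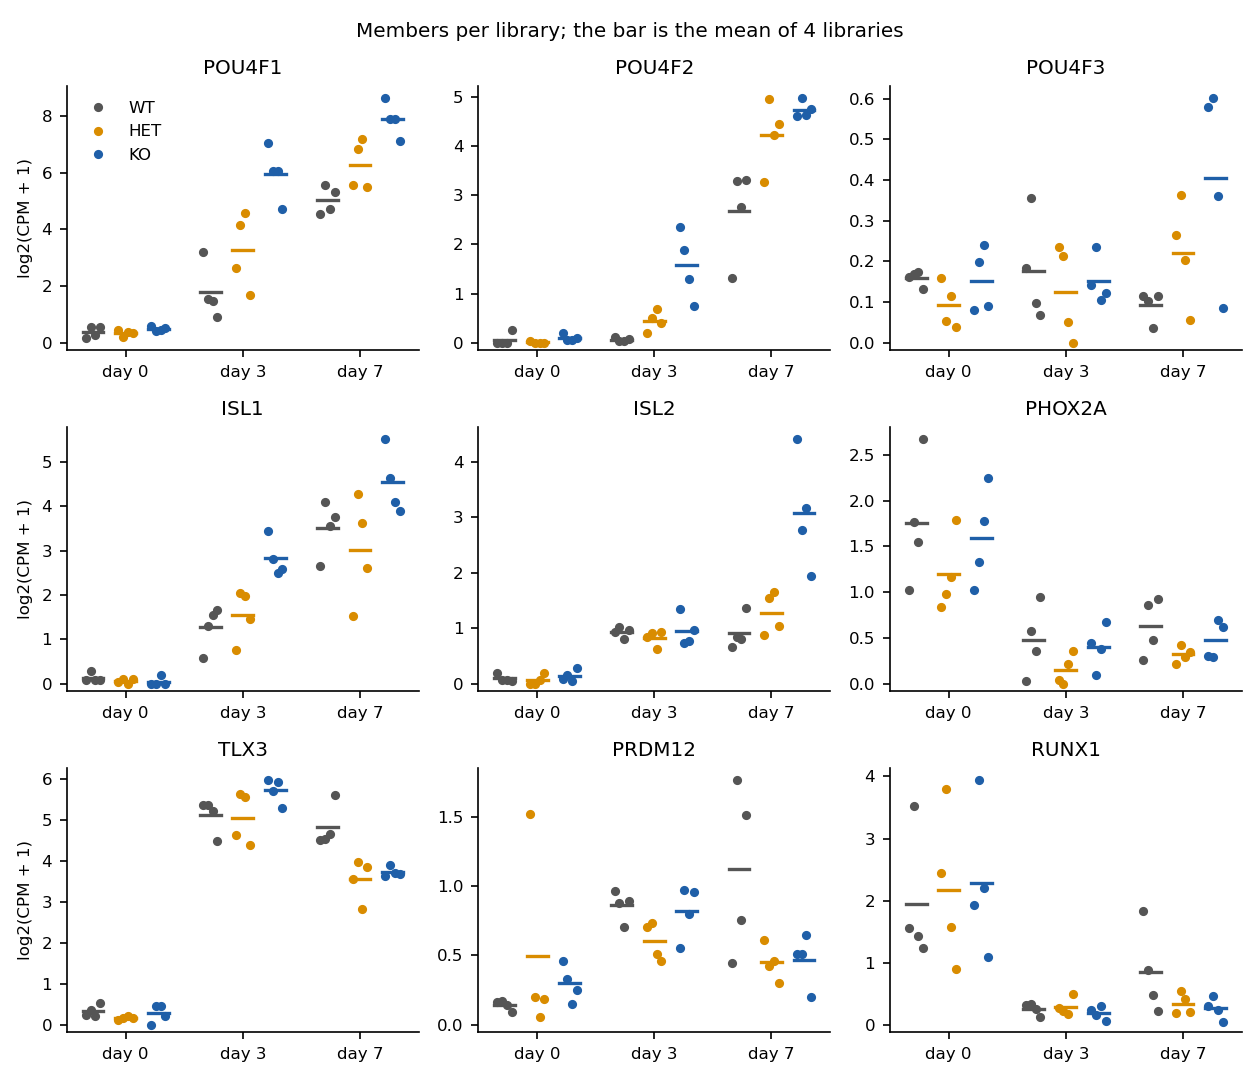
Level of each member as log2(CPM + 1) (y axis, scaled per panel) in each library by day and genotype (x axis); points are libraries and bars are means of 4. POU4F1 and ISL1 rise at each step, TLX3 peaks at day 3 in HET and KO, ISL2 is highest in KO at day 7, and PHOX2A and RUNX1 are highest at day 0.

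Before induction no genotype difference in the members passed in fits without a replicate block. At day 0, 3 members (POU4F1, PHOX2A and RUNX1) had enough counts to be tested with edgeR, and 0 passed in KO against WT (2.08% of all genes passed), in HET against WT (1.63%) and in KO against HET (0.856%). Of those 9 tests 0 had an unadjusted p under 0.05, and DESeq2 called 0. The other 6 members were at 0 to 64 counts a library, and a difference between genotypes was not detectable at that depth. RUNX1 instead followed the replicate number: at day 0 it stood at 10.6 CPM in WT replicate 2, 12.9 in HET replicate 2 and 14.4 in KO replicate 2, and at 0.868 to 4.42 CPM in the other 9 libraries. PHOX2A was highest in replicate 4 of each genotype at day 0, at 5.37, 2.46 and 3.74 CPM in WT, HET and KO. In replicates 1 to 3 it stood at 1.04, 2.40 and 1.93 CPM in WT and 0.791, 0.971 and 1.25 in HET. The KO values were 1.04, 1.51 and 2.43 CPM. Between same-numbered libraries PHOX2A was lower in HET than in WT for every number, while KO lay on both sides of WT. Fits without a block do not use this pairing. With replicate number tested as a term beside genotype, a test added after the data were seen, both passed at day 0 (edgeR adjusted p = 0.000886 for RUNX1 and 0.00478 for PHOX2A), where 6.96% of all genes did. No other member passed that test at day 0, day 3 (18.6% of all genes) or day 7 (0.0368%). With replicate number as a block, genes called at day 0 rose from 425 to 960 in KO against WT. In HET against WT they rose from 333 to 689, and in KO against HET from 175 to 221. The members' values in these blocked fits of day 0 are not reported here. The labels give 1 batch for all libraries and do not say what a replicate number shares.

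At day 3, KO cells carried far more POU4F1, POU4F2 and ISL1 than WT cells. Of 7 members tested in KO against WT, 3 passed and each was higher, where 21.6% of all genes passed, 12.6% higher and 8.93% lower. POU4F1 stood at 8.26, 1.92, 1.76 and 0.884 CPM in WT, 5.27, 16.6, 22.7 and 2.22 in HET, and 131, 65.4, 65.6 and 25.2 in KO. Every KO library lay above every WT and HET library, and HET overlapped WT. The difference of KO from WT was 22.5-fold (log2 4.49, SE 0.80, edgeR adjusted p = 0.00142). WT replicate 1 was far above the other WT libraries, and without it the value was log2 5.51 (adjusted p = 0.000867). POU4F2, which WT cells carried at 1 to 4 counts a library, stood at 0.0779, 0.0234, 0.0234 and 0.0478 CPM in WT, 0.152, 0.425, 0.618 and 0.313 in HET, and 4.10, 2.7, 1.45 and 0.679 in KO. The 3 genotypes did not overlap, and their order was WT, HET, KO. The KO difference was log2 5.52 (SE 0.65, adjusted p = 7.38e-05), a fitted value that leans on few WT counts. ISL1, which works beside POU4F1 in sensory neurons, stood at 0.506, 1.47, 1.92 and 2.18 CPM in WT, 0.684, 3.13, 2.93 and 1.75 in HET, and 9.85, 5.99, 4.61 and 5.01 in KO. KO lay above both other genotypes, by 4.07-fold over WT (log2 2.03, SE 0.49, adjusted p = 0.0102).

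The other members at day 3 differed less. TLX3 stood at 40.1, 40.4, 36.3 and 21.4 CPM in WT, 23.7, 48.3, 46.0 and 19.9 in HET, and 61.6, 51.5, 59.8 and 37.9 in KO. The KO difference for TLX3 was log2 0.63 (SE 0.27, edgeR adjusted p = 0.11), and the groups overlapped. ISL2, PHOX2A and PRDM12 had log2 differences of KO from WT between -0.35 and 0.09. POU4F3 and RUNX1 were too low to be tested at day 3, at 0 to 13 counts a library. Pan-neuronal genes moved with these results: 9 of 10 were higher in KO at day 3, where 12.6% of all genes were. Among the 9 were ELAVL4 (log2 3.68, mean 11.2 to 140 CPM) and STMN2 (log2 3.53, 64.4 to 749 CPM). The summed level of the 10 ran from 1341 to 1817 CPM in WT, 2023 to 5036 in HET and 4897 to 9995 in KO libraries. Of 5 proliferation genes, 2 were lower in KO at day 3 (median log2 -0.93), where 8.93% of all genes were. The 5 summed to 1041 to 2218 CPM in WT and 434 to 1176 in KO. The WT mean of that sum at day 3 (1659 CPM) was near that of day 0 (1618) and far above that of day 7 (89.3), and the pan-neuronal sum in WT was 1622 CPM at day 3 and 10119 at day 7. Their part in the differences of the members was not tested. In bulk RNA, more cells that carry a gene and more RNA per cell cannot be told apart. The 5 small structural RNAs described with the TPM values took 10.4%, 8.99%, 19.6% and 18.1% of counts in WT replicates 1 to 4 at day 3. Their shares were 13.7%, 5.11%, 11.2% and 16.1% in HET and 4.92%, 3.54%, 14.9% and 18.8% in KO. POU4F1 was lowest in replicate 4 of each genotype, and KO replicates 2 and 3 were alike in POU4F1 (65.4 and 65.6 CPM). The part of this share was not tested.

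HET cells lay between WT and KO for POU4F1 and POU4F2 at day 3. Of 7 members tested in HET against WT, 1 passed, POU4F2 (log2 3.05, SE 0.66, edgeR adjusted p = 0.0217), where 3.28% of all genes did. That call was lost without WT replicate 2, 3 or 4 or HET replicate 2 or 3 (log2 2.67 to 3.11, adjusted p 0.0504 to 0.0850). POU4F1 had log2 1.89 (SE 0.72, adjusted p = 0.226). Same-numbered HET and WT libraries deviated together at day 3, and with the replicate block 2 members passed, POU4F2 and POU4F1 (log2 2.03, adjusted p = 0.0381). Over all genes the block called 1895 of 21563 in HET against WT, where 708 were called without it. KO against HET gave 1 call of 7, again POU4F2 (log2 2.48, SE 0.52, adjusted p = 0.0176), where 4.35% of all genes passed. It was lost without HET replicate 1 (adjusted p = 0.0637) or KO replicate 1 (0.0604). POU4F1 differed between KO and HET by log2 2.60 (adjusted p = 0.0622) and passed without HET replicate 3 or KO replicate 4 (adjusted p 0.0489 and 0.0402), and ISL1 by 1.57 (adjusted p = 0.0923). Both mutants were set against one and the same set of WT libraries.

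By day 7 the members had split into genes that were higher and genes that were lower in KO. All 9 were tested, and 7 passed in KO against WT, 4 higher and 3 lower, where 32.6% of all genes passed, 17.0% higher and 15.6% lower. The 4 higher were POU4F1, POU4F2, POU4F3 and ISL2, and the 3 lower were TLX3, PRDM12 and RUNX1. ISL1 (log2 1.15, edgeR adjusted p = 0.114) and PHOX2A (log2 -0.53) did not pass. Without WT replicate 1, the WT library with the most proliferation transcripts, 6 passed, and without KO replicate 1, 4 passed.

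**Figure D3:**
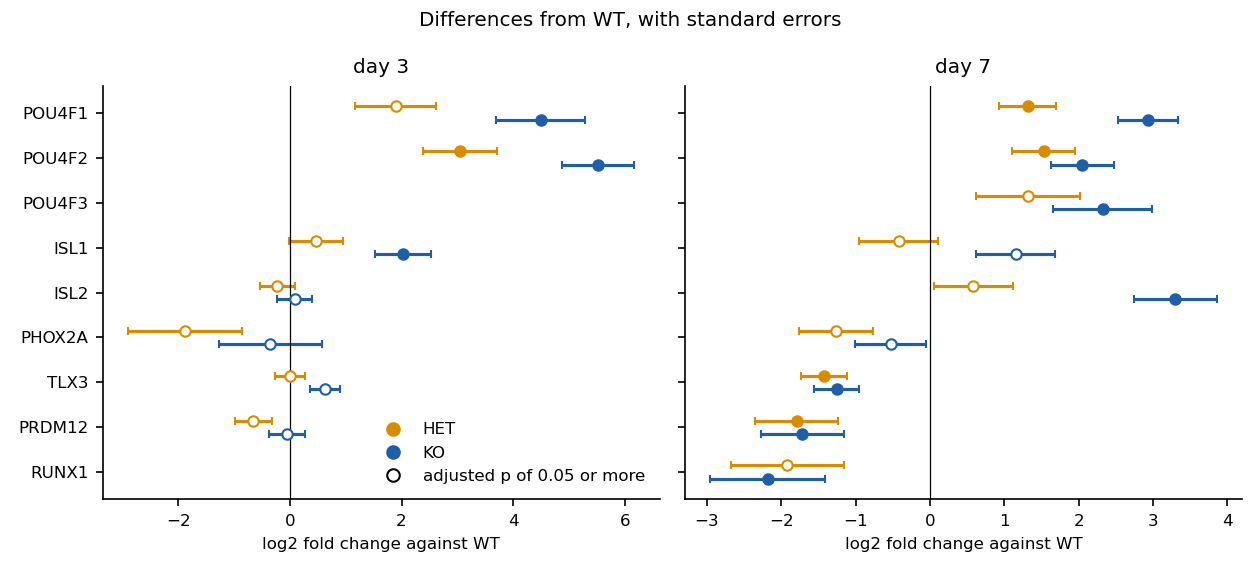
Log2 fold change against WT (x axis) of each member (y axis) at days 3 and 7 in HET and KO, with standard errors of the edgeR fit; filled points had an adjusted p under 0.05. At day 3 the points of POU4F1, POU4F2 and ISL1 in KO lie to the right at 4.49, 5.52 and 2.03, and at day 7 those of TLX3, PRDM12 and RUNX1 lie to the left in both mutants.

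Among the POU4F genes POU4F1 remained the most abundant. At day 7 it stood at 22.2, 46.7, 25.1 and 39.0 CPM in WT, 46.5, 114, 144 and 44.3 in HET, and 396, 236, 238 and 137 in KO. KO lay above every WT library (7.66-fold, log2 2.94, SE 0.40, edgeR adjusted p = 0.00025), and HET replicate 3 overlapped KO. POU4F2 was at 1.5, 8.78, 5.76 and 8.95 CPM in WT, 8.61, 30.1, 17.5 and 20.7 in HET, and 23.3, 30.3, 23.8 and 26.0 in KO (KO against WT log2 2.05, SE 0.43, adjusted p = 0.00307). KO and WT did not overlap. POU4F3, the form known from hair cells, stayed at 1 to 23 counts a library: 0.0836, 0.0744, 0.0247 and 0.0835 CPM in WT and 0.494, 0.517, 0.283 and 0.0601 in KO (log2 2.32, SE 0.67, adjusted p = 0.0183). That call was lost without WT replicate 3 or KO replicate 1 or 2 (adjusted p 0.0542 to 0.0599), and KO replicate 4 lay within the WT range.

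The LIM-homeodomain pair behaved unlike each other at day 7. ISL2 stood at 0.585, 0.794, 0.742 and 1.57 CPM in WT, 0.828, 1.92, 2.14 and 1.05 in HET, and 20.1, 5.80, 7.95 and 2.83 in KO. Each KO library was above each WT and HET library, and KO exceeded WT by 9.83-fold (log2 3.30, SE 0.56, edgeR adjusted p = 0.000884). KO replicate 1 was the highest, and without it the value was log2 2.52 (adjusted p = 0.00214). ISL1 stood at 5.35, 16.2, 10.7 and 12.6 CPM in WT, 1.90, 18.4, 11.3 and 5.12 in HET, and 44.8, 24.0, 16.3 and 13.9 in KO, and the genotypes overlapped. As a share of the FPKM of the pair, ISL2 made up 47.3% ± 12.5 (WT), 37.6% ± 17.5 (HET) and 17.3% ± 2.9 (KO) at day 3 (SD, n = 4). At day 7 the share was 11.3% ± 3.7 (WT), 23.5% ± 11.2 (HET) and 31.1% ± 8.9 (KO). At both days the 4 KO libraries lay outside the WT range, below it at day 3 (13.8% to 20.8% against 36.6% to 62.4%) and above it at day 7 (22.1% to 39.7% against 6.58% to 14.3%). For POU4F2 as a share of POU4F1 and POU4F2 the day 7 values overlapped, at 20.4% ± 7.7 in WT, 26.5% ± 11.0 in HET and 14.7% ± 5.8 in KO.

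TLX3, PRDM12 and RUNX1 were lower in KO at day 7. TLX3 stood at 21.9, 22.4, 24.3 and 47.8 CPM in WT, 10.7, 14.8, 6.10 and 13.3 in HET, and 11.4, 13.9, 12 and 11.9 in KO. Both mutants lay below every WT library, KO by 2.39-fold (log2 -1.26, SE 0.31, edgeR adjusted p = 0.00789). PRDM12, a chromatin factor that pain-sensing neurons need, stood at 0.362, 2.41, 0.692 and 1.86 CPM in WT, 0.525, 0.344, 0.378 and 0.233 in HET, and 0.423, 0.427, 0.566 and 0.150 in KO. Its groups overlapped (KO against WT log2 -1.72, SE 0.55, adjusted p = 0.0306), and the call was lost without WT replicate 2 or 4 or KO replicate 1, 2 or 4 (adjusted p 0.0616 to 0.0980). RUNX1 stood at 2.56, 0.843, 0.395 and 0.167 CPM in WT and 0.235, 0.382, 0.180 and 0.0301 in KO (log2 -2.18, SE 0.77, adjusted p = 0.0443). Without WT replicate 1 the RUNX1 value was log2 -1.09 (adjusted p = 0.248), and the call was also lost without WT replicate 2 or KO replicate 1, 3 or 4 (adjusted p 0.0616 to 0.104). WT replicates 2 and 4 were the high libraries for PRDM12, and WT replicate 1 for RUNX1.

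At day 7 in HET, 4 of 9 members passed against WT, where 14.4% of all genes did: POU4F1 (log2 1.31, SE 0.38, edgeR adjusted p = 0.0355) and POU4F2 (log2 1.53, SE 0.42, adjusted p = 0.0281) were higher, TLX3 (log2 -1.43, SE 0.31, adjusted p = 0.00904) and PRDM12 (log2 -1.79, SE 0.56, adjusted p = 0.0479) lower. The other 5 had log2 differences between -1.92 (RUNX1) and 1.32 (POU4F3), with adjusted p from 0.106 to 0.654. Only the TLX3 call held without each library in turn. POU4F1 was lost without any 1 of the 4 WT libraries or HET replicate 2 or 3 (log2 1.00 to 1.45, adjusted p 0.0510 to 0.127), and POU4F2 without WT replicate 3 or HET replicate 2, 3 or 4 (adjusted p 0.0536 to 0.0838). PRDM12 was lost without WT replicate 2, 3 or 4 or HET replicate 2, 3 or 4 (adjusted p 0.0530 to 0.137). Without HET replicate 1, the library least like its group, the same 4 members passed. In HET replicates 1 to 4 the 5 small structural RNAs described with the TPM values took 27.5%, 2.84%, 4.17% and 13.4% of counts, and the libraries with the lower shares, 2 and 3, were those high in POU4F1; the part of this share was not tested. KO against HET gave 1 call of 9, ISL2 (log2 2.71, SE 0.54, adjusted p = 0.0255), where 1.40% of all genes passed. It was lost without HET replicate 1, 2 or 4 or KO replicate 1 or 3 (log2 1.96 to 2.81, adjusted p 0.0592 to 0.0917). POU4F1 differed by log2 1.63 (adjusted p = 0.0621) and passed without HET replicate 3 or KO replicate 4 (adjusted p 0.0221 and 0.0327), and ISL1 by 1.57 (adjusted p = 0.209).

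Whether the change over time itself differed from WT was tested on all 36 libraries. Between days 0 and 3, POU4F1 rose more in KO than in WT (log2 difference of the changes 4.14, SE 1.02, edgeR adjusted p = 0.00945), as did POU4F2 (4.78, SE 1.5, adjusted p = 0.0417), 2 of 9 members where 8.55% of all genes passed. The POU4F2 value rests on 6 counts in WT day 0 replicate 4, the other 3 WT libraries being at 0, and without that library it was 1.06 (adjusted p = 0.842). It was also lost without KO day 0 replicate 2, 3 or 4, WT day 3 replicate 2, 3 or 4 or KO day 3 replicate 1 or 2 (adjusted p 0.0585 to 0.0754). ISL1 had 3.57 (adjusted p = 0.0827), and 2.75 (adjusted p = 0.331) without WT day 0 replicate 2. Without KO day 0 replicate 3, the only KO library of that day with ISL1 counts, the ISL1 value was 6.94 (adjusted p = 0.0297). That fitted value rests on 0 counts in the KO day 0 libraries that remain. Between days 3 and 7, 4 of 9 passed in KO against WT, where 18.5% of all genes did. ISL2 gained more in KO (log2 3.2, SE 0.68, adjusted p = 0.000952), also without KO day 7 replicate 1 (2.46, adjusted p = 0.00671). TLX3 lost more (-1.91, SE 0.47, adjusted p = 0.00344). The fold rise of POU4F2 was smaller in KO (-3.48, SE 0.86, adjusted p = 0.00382), a value that leans on 1 to 4 counts a library in WT at day 3. In mean CPM POU4F2 went from 0.0431 to 6.25 in WT and from 2.23 to 25.8 in KO. In limma on log2(TPM + 1) the POU4F2 value had the opposite sign (1.01). POU4F3 gained more (2.53, SE 0.91, adjusted p = 0.049), at counts of 23 or fewer a library, and lost that call without any 1 of 12 of the 16 libraries (adjusted p up to 0.163 without WT day 3 replicate 2). POU4F1 had -1.56 (adjusted p = 0.153), and without WT day 3 replicate 1 -2.53 (adjusted p = 0.0122). In HET against WT 0 of 9 members passed in edgeR between days 0 and 3 (0.271% of all genes) and 0 of 9 between days 3 and 7 (4.74%). There 2 and 1 members had an unadjusted p under 0.05, and DESeq2 called 0 and 1. The latter was TLX3 (log2 -1.42, edgeR adjusted p = 0.076), which passed in edgeR without HET day 3 replicate 4 (-1.59, 0.0351) or HET day 7 replicate 1 (-1.5, 0.0442).

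Per length, the leading member changed from TLX3 to POU4F1. In the deposited TPM, a level per transcript length that sums to the same total in each library, PHOX2A led at day 0 in all 3 genotypes, at 1.59 ± 0.94 (WT), 0.905 ± 0.298 (HET) and 1.43 ± 0.61 (KO; SD, n = 4). RUNX1 was next and overlapped it. At day 3 TLX3 led everywhere, at 10.7 ± 4.8 TPM in WT, 14.3 ± 10.4 in HET and 25.9 ± 14.9 in KO. It stood above the next member, POU4F1, in 4 of 4 libraries of each genotype, with POU4F1 at 0.312 ± 0.370, 1.49 ± 1.36 and 11.5 ± 9.7 TPM. The group ranges of the 2 genes were apart in WT and HET and overlapped in KO. At day 7 TLX3 still led in WT (7.22 ± 3.5 TPM, above POU4F1 at 2.56 ± 1.33 in 4 of 4 libraries), while POU4F1 led in KO (26.8 ± 10.6, above ISL1 at 5.25 ± 2.67 in 4 of 4). In HET POU4F1 was at 16.7 ± 15.3 TPM and exceeded TLX3, at 5.88 ± 4.76, in 3 of 4 libraries. In KO at day 7 ISL1 exceeded TLX3 (4.44 TPM) in 2 of 4 libraries, and TLX3 exceeded POU4F2 (4.11 TPM) in 4 of 4, with group ranges that overlapped. A group of 5 small structural RNAs (RMRP, RPPH1, RN7SK, RN7SL1 and RN7SL2) took 47.9% to 86.5% of a library's TPM and 2.84% to 27.5% of its counts, which moves TPM levels between libraries, so no genotypes are compared in TPM.

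**Figure D4:**
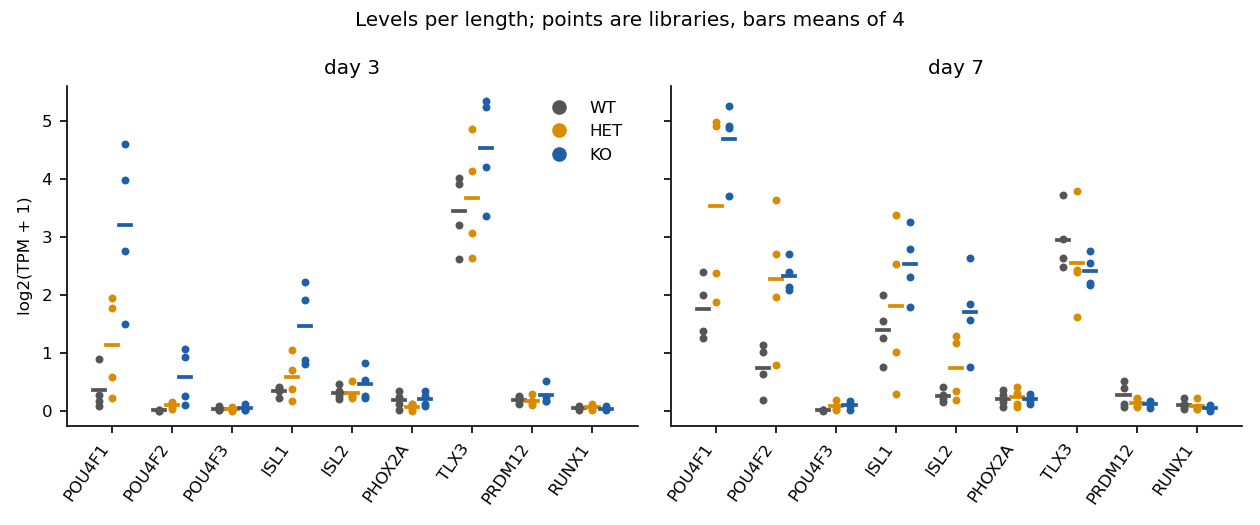
Level per length as log2(TPM + 1) (y axis) of each member (x axis) at days 3 and 7; points are libraries and bars are means of 4. TLX3 stands highest in each genotype at day 3, and at day 7 POU4F1 stands highest in KO, at a mean of 26.8 TPM.

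Other genes of the sensory programme, taken from lists chosen with earlier results of these data known, were counted beside the members. Of 18 sensory transcription factors tested at day 3, 12 were higher and 1 lower in KO than in WT (median log2 1.70, against -0.05 over all genes, of which 12.6% were higher and 8.93% lower). Among them were SHOX2 (log2 3.63, mean 3.05 to 39.5 CPM), EBF3 (2.55, 59.3 to 347 CPM), EBF1 (2.42) and NEUROG1 (2.40). At day 7 the same list had 3 higher and 8 lower of 18 (median log2 -0.56, against -0.04 over all genes, of which 17.0% were higher and 15.6% lower). TLX2 (log2 -5.96), a relative of TLX3, and NEUROD1 (-5.18, mean 421 to 11.8 CPM), a proneural factor, were lower. DRGX (3.56, 1.24 to 14.6 CPM), a homeodomain factor of pain circuits, was higher. In HET at day 7, 8 of 18 were lower and 0 higher, where edgeR called 8.31% of all genes higher and 6.10% lower.

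Receptors and effectors of sensory neurons took another course. At day 3, 9 of 18 tested passed in KO and each was higher (median log2 1.00), where 12.6% of all genes were higher. The 9 were led by ADCYAP1 (6.23), P2RX3 (4.19, mean 8.96 to 166 CPM), PRPH (3.39) and SCN9A (3.07). At day 7, 12 of 21 were higher and 1 lower (median log2 1.44), where 17.0% of all genes were higher and 15.6% lower. TAC1, the precursor of substance P, had log2 5.40, the sodium channel gene SCN9A 4.00 (mean 7.2 to 115 CPM), ADCYAP1 3.39 and the GDNF receptor RET 3.11. CALCA and SCN10A, which mark mature pain-sensing neurons, were low: CALCA had 3, 0 and 1 counts and SCN10A 1, 1 and 77 counts in all 4 libraries of WT, HET and KO at day 7. In HET at day 7, 6 of 21 passed, each higher, where 8.31% of all genes were higher. Among the 6 were TAC1 (4.12) and RET (3.15). Of 14 partners of the members, such as LIM-domain cofactors, 7 passed in KO at day 7, each higher, where 17.0% of all genes were higher. LMO3 (log2 6.50, mean 1.38 to 127 CPM) came first.

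**Figure D5:**
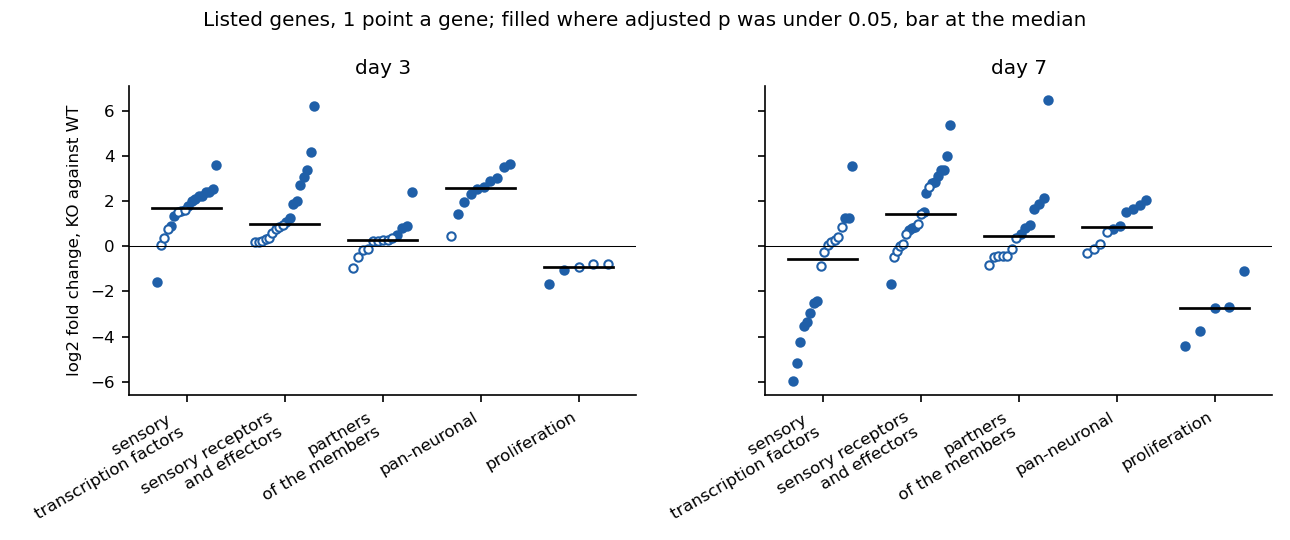
Log2 fold change of KO against WT (y axis) for genes of 5 lists (x axis) at days 3 and 7; each point is a gene, filled where the edgeR adjusted p was under 0.05, and bars are medians. The sensory transcription factors have a median of 1.70 at day 3 and -0.56 at day 7, while the medians of sensory receptors and effectors lie above 0 at both days, at 1.00 and 1.44.

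Defining factors of other tissues in which the members act were low, though the lists that hold them were not. Of the blood genes, SPI1 had means of at most 0.0986 CPM, GATA1 of 0.0545 and PTPRC of 0.0687 in any group, and the summed level of the 6 blood genes was 0.586 to 6.20 CPM over all libraries. ATOH1, which defines hair cells, was at means of 0 to 0.0592 CPM, and ATOH7, which starts retinal ganglion cells, at 0.119 to 0.686. The motor neuron factors MNX1 and LHX3 reached at most 0.496 and 0.574 CPM. The enzymes of noradrenaline neurons, TH and DBH, stayed at means of at most 3.59 and 2.40 CPM. Over the whole lists, which hold genes shared with other cells, the highest library sums were 211 CPM for 7 motor neuron genes (WT day 7), 158 for 13 autonomic genes (HET day 3), 150 for 5 retina genes (WT day 0), 193 for 11 neural crest and glia genes (KO day 0) and 46.9 for 4 hair cell genes (HET day 3). At day 7 the motor neuron sum was 109 to 211 CPM in WT, 122 to 152 in HET and 80.8 to 150 in KO. The autonomic sum at day 7 was 33.2 to 123 CPM in WT, 24.6 to 59.4 in HET and 25.5 to 46.2 in KO. SOX10, which marks neural crest and glia, was at means of 0.560 to 2.54 CPM. Proliferation genes moved with the day 7 results: 5 of 5 were lower in KO and 5 of 5 in HET than in WT. Of all genes 15.6% were lower in KO and 6.10% in HET. The 5 proliferation genes summed to 25.8 to 185 CPM in WT, 11.0 to 18.9 in HET and 11.2 to 13.6 in KO. Their part in the differences of the members was not tested.

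Genes with patterns most like those of the 3 most abundant members were found by Pearson correlation of log2(CPM + 1) over the 9 group means, among 14972 genes with a symbol and a mean of at least 1 CPM. Nearest to POU4F1 were TCAF1 (r = 0.995), MIR217HG, NREP, SLC4A8 and FSIP2 (0.991). The nearest to TLX3 were ATP2B2 (0.997), PDE4C, FAM210B, CADM3-AS1 and INSYN1-AS1 (0.994). For ISL1 they were its neighbour ISL1-DT (0.993), MBD5, GFRA2 (a receptor subunit for GDNF-family ligands), ZNF91 and TBC1D30 (0.982). Among the members, ISL1 correlated with POU4F1 at 0.972 and ranked 126th of 14972, TLX3 with POU4F1 at 0.667, and RUNX1 with TLX3 at -0.934. The 9 points share libraries and the course of days, so these are descriptions.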

How the data were processed

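RNA depleted of ribosomal RNA was sequenced as 151-base paired-end reads from 36 libraries, per the labels' protocols. The submitters' processing notes name cutadapt 4.8, FastQC 0.11.8, MultiQC 1.20, STAR 2.7.8a, RSEM 1.3.3 and GRCh38. The authors deposited expected counts per gene, TPM and FPKM. The expected counts were whole numbers and were used as deposited, without 4 reporter rows, leaving 62710 genes. The TPM deposited by the authors, a level per length, served for the order of genes within a library, and the deposited FPKM for shares within a gene family.

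CPM are counts divided by a library's total gene counts. Differences were tested with edgeR 4.0.16 (R 4.3.3): TMM normalization, filterByExpr, quasi-likelihood F-test and Benjamini-Hochberg adjustment over all genes tested, called at an adjusted p under 0.05. Genotypes were compared on the 12 libraries of a day, days on the 12 of a genotype, and changes over time on all 36. The fits were tested on simulated data. Alternatives were other scalings, no filter, a replicate block, DESeq2 1.42.0, limma 3.58.1 on log2(TPM + 1), only the groups compared, and each library left out. Promoters came from RefSeq (GRCh38.p14) and gene positions from GENCODE 29, in which 58274 of 62710 identifiers were found.

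Members and lists were chosen with earlier results of these data known. From each list at most 4 called genes with the largest changes and a mean of at least 1 CPM in the higher group were named, along with defining markers, RAI1, NEUROG2 and, for 3 members, the 5 genes of nearest pattern. Some listed genes that this rule would name are not reported here. Replicate numbers come from the labels. Same-numbered libraries deviated together, with every correlation over 0.1, in KO and WT at day 0 (0.182 to 0.450) and in HET and WT at day 3 (0.117 to 0.660), where POU4F1 had log2 2.03 with the replicate block.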

Additional observations from a re-analysis of the deposited data

Results flagged for a closer look

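In 9 of 79 groups of 4 libraries, 1 library lay far from the other 3 by Dixon's test (about 1 in 20, or 3.95, for normal values). These were POU4F1 in WT day 3 replicate 1 (8.26 CPM), POU4F2 in WT day 0 replicate 4 (0.193 CPM), POU4F3 in WT day 7 replicate 3 (0.0247 CPM), ISL1 in WT day 0 replicate 2 (0.225 CPM) and ISL1 in KO day 0 replicate 3 (0.145 CPM). The others were ISL2 in WT day 0 replicate 1 (0.148 CPM), TLX3 in WT day 7 replicate 4 (47.8 CPM), PRDM12 in HET day 0 replicate 1 (1.87 CPM) and RUNX1 in WT day 0 replicate 2 (10.6 CPM). For POU4F2 in WT day 0 and ISL1 in KO day 0 the other 3 libraries had 0 counts, which fixes the outcome of the test. The number flagged is therefore a description.

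Changes over time that differed between KO and WT in the edgeR test of the difference were those of POU4F1 (log2 4.14) and POU4F2 (4.78) between days 0 and 3. Between days 3 and 7 they were those of POU4F2 (-3.48), POU4F3 (2.53), ISL2 (3.2) and TLX3 (-1.91).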

How the results depend on the processing

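Of 58 called member differences, 58 kept their sign in every alternative other than limma on log2(TPM + 1), and 49 also kept their side of the threshold in every alternative other than limma and leaving out a library. In limma 31 were lost, and 13 were lost when 1 library was left out. Of 70 uncalled differences not given singly, 33 changed sign and 4 passed the threshold in some alternative. In limma, where the median of all genes moved to 0.20 (KO, day 3), 0.13 (HET, day 3), 0.18 (KO, day 7) and 0.46 (HET, day 7) against WT, members called were 0 for HET against WT and 0 for KO against HET on either day, 2 for KO against WT at day 7, 4, 3 and 5 between days 0 and 3 in WT, HET and KO, 2 between days 3 and 7 in HET, and 0 and 1 for the changes over time in KO against WT. There ISL2 in WT from day 3 to 7 was -0.0504, and the KO against WT difference of that change was 0.074 for POU4F1 and 1.01 for POU4F2. With the replicate block, members called were 2 for HET against WT (days 3 and 7 alike), 4 for KO against HET (day 3), 0 for the same pair later, and 1 for the change from day 0 to 3 in KO against WT. With only the groups compared they were 0 (HET against WT, day 3), 0 (KO against HET, day 3), 1 (HET against WT, day 7) and 0 (KO against HET, day 7). The block gave 4 for KO against WT at day 3, where TLX3 passed (log2 0.65, adjusted p = 0.0145), and among its 4 for KO against HET were POU4F1 (2.62, 0.00639) and ISL1 (1.76, 0.0305). Correlations of same-numbered libraries at day 3 ran from 0.0611 to 0.473 in KO and WT and from 0.0170 to 0.593 in KO and HET. At least 1 same-numbered pair was thus under 0.1 in each, while others deviated together. What a replicate number shares is not given in the labels. Without a filter, KO against HET gave 2 at day 3 and 2 at day 7, and DESeq2 gave 3 and 2. The change from day 0 to 3 in KO against WT gave 1 with library size alone and 1 without a filter, and DESeq2 gave 1 for the change from day 3 to 7 in HET.

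With each library left out in turn, members called ran from 0 to 1 (HET against WT, day 3), 0 to 2 (KO against HET, day 3), 4 to 6 (KO against WT, day 7), 1 to 4 (HET against WT, day 7), 0 to 2 (KO against HET, day 7), 1 to 2 (change from day 0 to 3, KO against WT) and 0 to 1 (change from day 3 to 7, HET against WT). From day 3 to 7 in WT, ISL2 ran from -0.27 to 0.31 and TLX3 from -0.48 to 0.043. From day 0 to 3 in HET, PRDM12 ran from -0.36 to 2.28, and was 0.020 without 5 small RNAs, 0.053 without a filter, 0.83 with the replicate block and 0.019 with only the groups compared. The cause was not tested. Over all genes, the block called 8138 in KO against WT at day 3 (4649 without it), 1895 in HET against WT (708) and 2739 in KO against HET (937), DESeq2 1327 and 1831 in the latter 2, and limma 816, 39 and 39. At day 7 limma called 1007, 271 and 39 (edgeR 7070, 3129 and 305). Low counts limit POU4F2 in WT at day 3 and POU4F3 throughout.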
